A study of Homo sapiens with 72 samples.

Results

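DDIT3, TRIB3, CHAC1, NUPR1, JDP2 and ATF3 are 6 stress genes that act downstream of the transcription factor ATF4. They were picked by name from the count table, which held 44659 gene names, of which 29493 had a count in at least 1 library. All 6 names were found. The choice was made with the 0 h levels in the T arm of the glutamine experiment already known, so those levels are given below as a description and carry no test.

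ATF4 is the main transcription factor of the integrated stress response. Kinases that sense amino acid shortage, misfolded protein or other stress phosphorylate the initiation factor eIF2, general translation falls, and ATF4 mRNA is translated more. ATF4 and its partners then switch on genes for amino acid supply and a set of effectors. DDIT3 encodes CHOP, a bZIP factor linked to cell death in prolonged stress. TRIB3 is a pseudokinase that feeds back on ATF4 and CHOP, CHAC1 degrades glutathione, and NUPR1 is a small nuclear stress protein. JDP2 and ATF3 are bZIP factors of the AP-1 and CREB families that often act as repressors.

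The 72 libraries came from cytoplasmic RNA of A375, an established human melanoma cell line, and were made with QuantSeq, which reads the 3′ end of each polyadenylated RNA. In the siRNA experiment, cells carried either siCTU2, a pool of 2 siRNAs against CTU2, a subunit of the enzyme that thiolates the wobble uridine of some tRNAs, or the control siRNA siGL2, for 42 h. In the medium experiment, cells were kept for 18 h without glutamine (mQ) or with glutamine (pQ), and the labels name no siRNA for them. Triptolide at 25 µM, a transcription inhibitor, was then given to all cells, alone (T arm) or together with the translation inhibitor cycloheximide at 100 µg/ml (TCHX arm). Cells were collected at once (0 h) or after 3 or 5 h, which gave 24 groups of 3 replicates. The 0 h samples of both arms had thus met the drugs only briefly. The study asked whether CTU2 loss or glutamine shortage changes mRNA levels and the part of mRNA decay that needs translation.

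Levels are given as CPM, each library's counts scaled to an equal total. Totals ran from 5987692 to 15534331 counts per library. The siRNA lowered its target: CTU2 was at 2.95, 1.01 and 1.32 CPM in the siCTU2 T arm at 0 h and at 21.1, 22.0 and 24.2 CPM in siGL2. Of 8 melanoma and melanocyte markers, 6 had a mean above 1 CPM, and SOX10, S100B and MITF were among them, whereas MLANA was at 0 in 17 libraries and TYR in 16. The keratinocyte marker KRT5 was at 0 in 71 of the 72 libraries. In the keratinocyte list and in the fibroblast list, 1 gene of 4 had a mean above 1 CPM. No statement was found that replicates were separate cultures, so p-values measure the spread between these samples, which may be technical. Fewer cells and less RNA per cell cannot be told apart in such bulk RNA.

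A set of 3 libraries stood apart: mQ T 5 h replicate 3, pQ TCHX 0 h replicate 3 and siCTU2 TCHX 5 h replicate 3. Between 19896 and 20364 genes had a count in them, whereas the remaining 69 libraries ranged from 15507 to 17495. PTPRC, the leukocyte common antigen, was at 31.1, 31.8 and 32.6 CPM in these libraries and at most at 0.759 CPM elsewhere. CD3E, a T cell receptor subunit, was at 32.4, 32.6 and 31.1 CPM, against at most 0.304 CPM elsewhere. The macrophage marker CD68 did not set them apart, since it lay between 5.32 and 8.52 CPM in them, within the 2.95 to 20.02 CPM seen in the other libraries.

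Several members had nearly the same level in the 3 libraries, whatever their group. CHAC1 was at 18.7, 19.3 and 18.6 CPM in the 3 libraries, whereas the other replicates of the same groups were at 0.393 and 1.69, at 3.01 and 2.91, and at 0.203 and 0.168 CPM. DDIT3 was at 45.3, 46.0 and 38.1 CPM and JDP2 at 6.81, 5.91 and 5.15 CPM in the same order. DDIT3 was above the other replicates of its group in all 3, and JDP2 above them in pQ and siCTU2 and below them in mQ. The part of these libraries in each result was not tested beyond leaving them out. Results that rest on them are given below with and without them, or with the share kept in these libraries beside the other replicates.

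**Figure D1:**
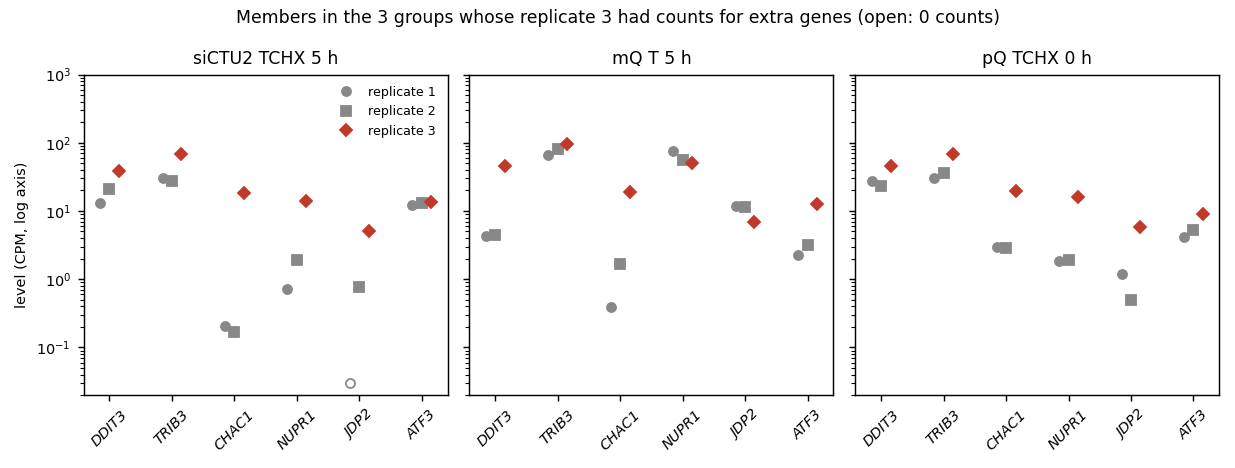
Level in CPM (log axis) of the 6 members in the 3 libraries that stood apart (replicate 3, red), beside replicates 1 and 2 of the same groups (grey). CHAC1 sits between 18.6 and 19.3 CPM in all 3 libraries.

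The members lie on 6 chromosomes. In GRCh38 (GENCODE annotation), DDIT3 is at chr12:57516588-57521737 on the minus strand, NUPR1 at chr16:28532708-28539008 on the minus strand, and TRIB3 at chr20:362835-397559, CHAC1 at chr15:40952962-40956512, JDP2 at chr14:75427716-75474111 and ATF3 at chr1:212565334-212620777 on the plus strand. DDIT3 overlaps MARS1 and MBD6 on the other strand, and MIR616 and the protein-coding gene ENSG00000285133 on its own. JDP2 overlaps the antisense gene JDP2-AS1, and NUPR1 overlaps a long non-coding RNA on its own strand. Whether counting used the read strand was not stated, so counts of DDIT3 and JDP2 may include reads of those neighbours, and for DDIT3 and NUPR1 strand would not separate the neighbours on the same strand.

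ATF4 and CHOP bind composite C/EBP-ATF elements as dimers with C/EBP proteins, so the promoters were searched for 3 letter patterns, on both strands: TGATGNAA (C/EBP-ATF element), TGACGTCA (CRE) and TGACTCA (AP-1). Each promoter ran from 250 bases before to 50 bases after a RefSeq transcript start (GRCh38.p14). At least 1 promoter was found for 5 of the 6 members, and NUPR1 was the exception. The windows below show every match to these patterns that was found in the promoters of these members. The matched element is in capitals, each window is written 5′ to 3′ on the gene's strand, and the second DDIT3 promoter holds the same element as the first.
CHAC1: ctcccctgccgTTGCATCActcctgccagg
JDP2: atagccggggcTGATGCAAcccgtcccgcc
ATF3: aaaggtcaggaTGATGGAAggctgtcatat
DDIT3: gcgcgcgcaTGACTCAcccacctcctc

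The CHAC1 window is at chr15:40953251-40953280, its element is the C/EBP-ATF pattern read on the opposite strand, and it starts at base -209 from the transcript start. The JDP2 window is at chr14:75427995-75428024, in 1 of 3 promoters, with the element at -16. The ATF3 window is at chr1:212565205-212565234, in the upstream promoter of 2, with the element at -191. The DDIT3 window is at chr12:57520738-57520764, and its element, at -241, is the AP-1 pattern. No pattern was present in the 3 TRIB3 promoters, which says only that these letters are not in those windows. Of 35116 promoters, 3.62% held TGATGNAA, 1.85% TGACGTCA and 4.95% TGACTCA. In the GENCODE annotation the CHAC1 window overlaps an exon of 1 of 3 transcripts, the JDP2 window overlaps 3 of 8 transcripts and an exon of 1 of them, the DDIT3 window lies in an intron of 1 of 6 transcripts, and the ATF3 window lies outside all 10 transcripts. A match is a description of the letters and no measure of binding.

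At 0 h, all 6 members were highest in cells without glutamine, and their T arm levels were known when they were chosen. None of their mQ libraries overlapped with those of another condition in the T arm. Of 12374 genes, 18.0% had every mQ library above every pQ library there, and the share above all other conditions was not counted. ATF4 itself was at 1213, 1551 and 1269.9 CPM in mQ and between 215 and 253 CPM in the 9 libraries of the other 3 conditions. Among the bZIP factors, DDIT3 was at 177, 229 and 270.0 CPM in mQ and at 26.5, 27.2 and 25.1 CPM in pQ. Every mQ library was thus above every pQ library, and the pQ values lay close together. In the siRNA experiment, DDIT3 was at 25.5, 38.1 and 28.9 CPM in siCTU2 and at 20.9, 21.0 and 25.3 CPM in siGL2. The lowest siCTU2 value was just above the highest siGL2 value, and pQ overlapped with both.

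ATF3, which is induced by many stresses, was at 34.8, 33.8 and 50.7 CPM in mQ, at 12.2, 14.3 and 12.3 CPM in siCTU2, at 4.16, 7.57 and 6.42 CPM in siGL2 and at 6.12, 4.49 and 4.87 CPM in pQ. It was the only member whose siCTU2 libraries all stood above both control conditions without reaching mQ. JDP2 was at 15.3, 23.0 and 18.3 CPM in mQ, 1.39, 1.69 and 1.73 CPM in siGL2 and 1.07, 1.47 and 0.730 CPM in pQ. In siCTU2 it had 1, 1 and 0 counts, below every other library of the T arm at 0 h. Its siGL2 and pQ ranges overlapped.

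TRIB3 was at 289, 219 and 333 CPM in mQ and at 28.6, 33.6 and 32.6 CPM in pQ. It was at 42.7, 42.1 and 37.7 CPM in siGL2 and at 30.2, 33.0 and 26.0 CPM in siCTU2. The siGL2 libraries stood above those of siCTU2 and pQ, which overlapped with each other. TRIB3 thus ordered the conditions below mQ differently from DDIT3, for which siCTU2 had the higher mean of the siRNA pair.

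CHAC1 and NUPR1 were low in all conditions but mQ. CHAC1 was at 133, 155 and 173 CPM in mQ, and its 9 other libraries lay between 1.69 and 3.83 CPM with overlapping conditions. NUPR1 was at 81.5, 62.3 and 132 CPM in mQ and between 0.966 and 2.84 CPM in the 9 others, which also overlapped. The NUPR1 values in mQ had a mean of 91.9 ± 35.9 CPM (SD, n = 3).

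In log2 units, the T arm differences between mQ and pQ were 3.16 for DDIT3, 3.20 for TRIB3, 3.00 for ATF3, 4.18 for JDP2, 5.96 for NUPR1 and 6.05 for CHAC1, with standard errors of 0.16, 0.16, 0.21, 0.30, 0.35 and 0.19. As folds these were 8.92, 9.20, 8.01, 18.1, 62.1 and 66.0. The members therefore fell into a group near 8-fold to 9-fold and a group above, in which CHAC1 and NUPR1 had the largest folds. All 6 had non-overlapping libraries and at least 8-fold higher levels in mQ, and they were chosen with these levels known. The 8-fold cut lies just below the smallest member fold, 8.01 for ATF3, whose ratio of mean CPM was 7.70. Of 12374 genes, 18.0% had every mQ library above every pQ library, and 0.154% were also at least 8-fold higher.

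**Figure D2:**
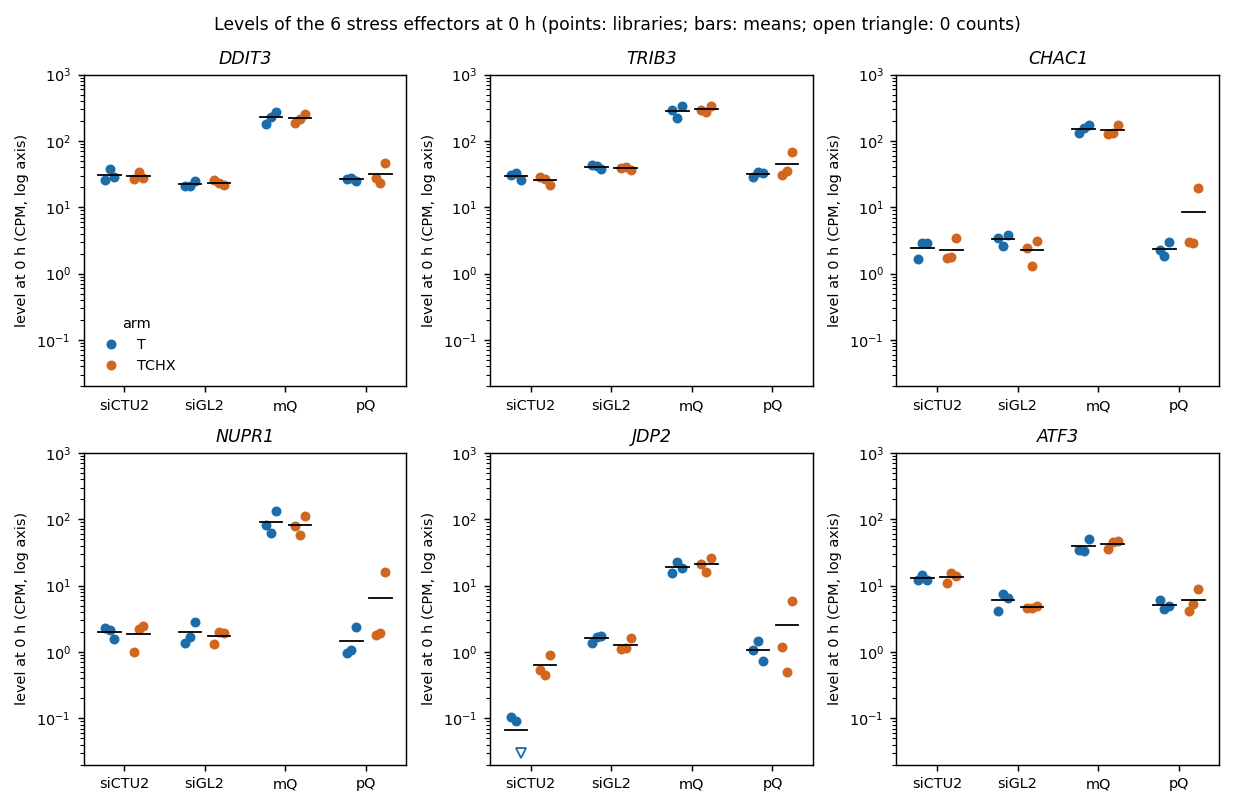
Level in CPM (log axis) of each member in every 0 h library of the 4 conditions and both arms, with lines for the means. The mQ libraries lie above those of the other conditions in each panel, and the siCTU2 T arm libraries of JDP2 had 1, 1 and 0 counts.

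The TCHX arm gave a second set of 0 h libraries, from cells kept in the same media that had met the drugs only briefly. The members were chosen with the T arm levels known, so the tests below are not independent of that choice. DDIT3 was at 184, 218 and 256 CPM in mQ and at 27.3, 23.1 and 46.0 CPM in pQ. Again the groups did not overlap, and the highest pQ value came from replicate 3, which stood apart. The log2 difference was 2.77 (SE 0.25, adjusted p = 0.000325, edgeR quasi-likelihood test). TRIB3 was at 293, 277 and 339 CPM against 30.3, 35.7 and 67.7 CPM, a log2 difference of 2.76 (SE 0.26, adjusted p = 0.000378). ATF3 was at 36.1, 44.8 and 46.6 CPM against 4.18, 5.32 and 8.94 CPM, a log2 difference of 2.77 (SE 0.26, adjusted p = 0.000378).

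CHAC1 was at 126, 129.5 and 177 CPM in mQ and at 3.01, 2.91 and 19.3 CPM in pQ. Its log2 difference of 4.02 (SE 0.56, adjusted p = 0.00365, edgeR) was below its T arm value of 6.05, and the third pQ library was far above the other pQ libraries. NUPR1 was at 79.4, 57.9 and 111 CPM against 1.83, 1.91 and 16.0 CPM, a log2 difference of 3.55 (SE 0.63, adjusted p = 0.0111, edgeR). JDP2 was at 21.1, 16.1 and 26.1 CPM against 1.18, 0.502 and 5.91 CPM, a log2 difference of 2.96 (SE 0.60, adjusted p = 0.0194, edgeR). For all 3 genes, replicate 3 was the high library of pQ and every mQ library was above it.

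All 6 members thus rose in mQ in the TCHX arm, where 3.82% of the 12521 genes tested passed in this direction and 2.65% in the other. Without pQ replicate 3, the log2 differences were 3.16 for DDIT3, 3.22 for TRIB3, 5.63 for CHAC1, 5.48 for NUPR1, 4.72 for JDP2 and 3.18 for ATF3, and all 6 passed the test. NUPR1 no longer passed without mQ replicate 1 or 3 or pQ replicate 1 (adjusted p = 0.0535 to 0.0901, edgeR), and JDP2 without any mQ replicate or pQ replicate 1 (adjusted p = 0.0632 to 0.123, edgeR).

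In CTU2-depleted cells the members moved in different directions. ATF3 was higher in siCTU2 than in siGL2 by 1.09 on the log2 scale (SE 0.23, adjusted p = 0.00106, edgeR), and DDIT3 was higher by 0.46 (SE 0.15, adjusted p = 0.027, edgeR). TRIB3 was lower, with a log2 difference of -0.46 (SE 0.12, adjusted p = 0.00677, edgeR). CHAC1 had a log2 difference of -0.40 (SE 0.38, 95% interval -1.14 to 0.34, adjusted p = 0.438, edgeR) and NUPR1 of 0.01 (SE 0.45, interval -0.86 to 0.89, adjusted p = 0.988, edgeR). Both intervals are wide, since each gene had 50 to 84 counts per condition over 3 libraries.

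JDP2 was lower in siCTU2, with 2 counts in all against 41 in siGL2, a ratio of 0.0376 once scaled to the totals (95% exact interval 0.00441 to 0.145, counting error only). The edgeR test gave an adjusted p of 0.000335, but JDP2 passed the count filter only through siGL2, so this call is a description. With no filter on low counts the log2 difference was -4.44 (adjusted p = 0.000221, edgeR). In the TCHX arm at 0 h, JDP2 had 20 counts against 46, a ratio of 0.464 (interval 0.26 to 0.80), and its adjusted p was 0.159 (edgeR). The JDP2 groups did not overlap in either arm, but the size of the difference depended on the arm.

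In all, 2 members rose and 2 fell in the siRNA comparison, with the filter limit given above for JDP2. Over all 12292 genes tested, 17.8% passed in the higher direction and 18.2% in the lower one. In the TCHX arm, ATF3 (log2 difference 1.502, adjusted p = 1.54e-05, edgeR) and TRIB3 (-0.58, adjusted p = 0.00179, edgeR) passed the test again. DDIT3 had a log2 difference of 0.35 there (adjusted p = 0.0568, edgeR). DDIT3 also missed the threshold in the T arm without siCTU2 replicate 2, the highest library, or without siGL2 replicate 1 or 2 (adjusted p = 0.0859 to 0.181, edgeR).

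**Figure D3:**
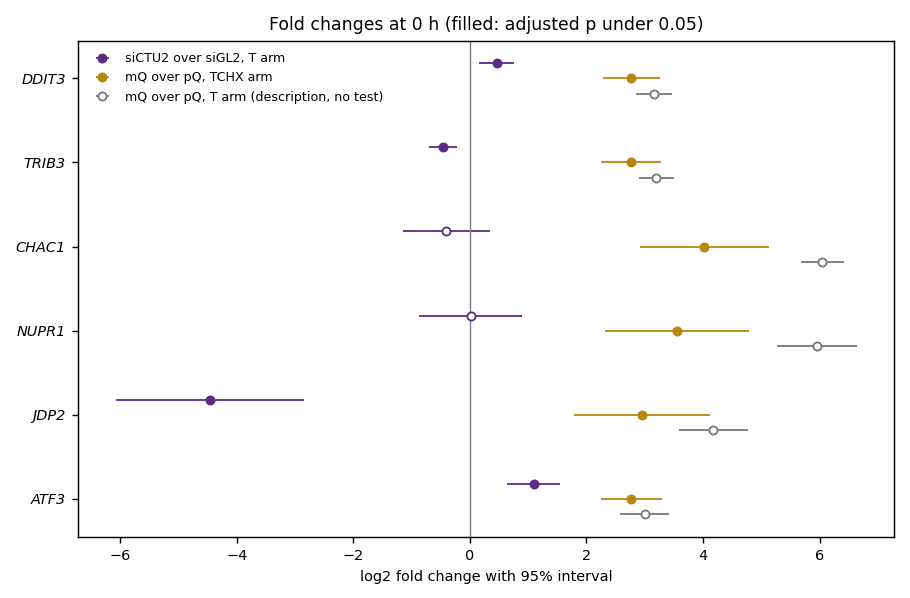
Log2 difference at 0 h for each member, siCTU2 against siGL2 in the T arm and mQ against pQ in both arms, with bars for the 95% intervals and filled points for an adjusted p below 0.05 (the T arm of mQ against pQ was not tested). The mQ against pQ differences lie between 2.76 and 6.05, and the siCTU2 against siGL2 differences lie on both sides of 0, where the JDP2 value rests on 2 counts in siCTU2.

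The genes most like each member over the 8 group means at 0 h were sought among 11374 genes with a mean of at least 2 CPM. Likeness was the root mean square difference between centred profiles of log2(CPM + 0.5), so 0 means the same profile. The profiles hold the T arm levels used to choose the members and the pQ library that stood apart, and JDP2 reached the minimum through mQ alone, so the likeness is a description only. DDIT4, an mTORC1 inhibitor gene induced by stress, was closest to DDIT3 (0.25), followed by TRIB3 (0.33). CTH, which makes cysteine from cystathionine, was closest to TRIB3 (0.17). CHAC1 and NUPR1 were closest to each other (0.21), and the next gene for both was JDP2, at 0.86 for CHAC1 and 0.80 for NUPR1. TRIB3 (0.58) and ALDH1L2 (0.66), a mitochondrial folate enzyme gene, were closest to JDP2. The profile of ATF3 was closest to those of RCAN1 (0.18), a calcineurin regulator gene, and TXNIP (0.24), a thioredoxin inhibitor gene, and not to another member.

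The rest of the pathway was followed through gene lists, which were also picked when earlier results of these data were known. The list counts below are thus not independent of that choice. For mQ against pQ in the TCHX arm at 0 h, 3.82% of all genes tested passed upward and 2.65% downward. Among 23 tested amino acid targets of ATF4, 20 were higher in mQ than in pQ in the TCHX arm and none lower, with a median log2 difference of 1.59 against -0.01 over all genes. They included DDIT4 (2.91), CTH (2.88), the serine synthesis gene PSAT1 (1.77) and the folate gene MTHFD2 (1.59). Of 7 tested CHOP targets, 4 were higher: PPP1R15A (1.74), which directs dephosphorylation of eIF2, the death genes PMAIP1 (1.89) and BBC3 (1.45), and the death receptor gene TNFRSF10B (0.85). Among 10 genes for eIF2, its kinases and ATF4, only PPP1R15A and ATF4 (1.85) passed the test.

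Of 15 endoplasmic reticulum chaperone and quality genes, XBP1 (1.42) and HERPUD1 (1.44) were higher in mQ and CRELD2 (-0.44) lower, with a median of -0.02. Of 15 bZIP partners, 5 were higher, among them CEBPG (1.83), CEBPB (1.65) and MAFF (1.15), and none lower. Of 5 tested paralogs of the members, 0 passed the test, and their median was 0.02. The closest to the threshold was TRIB1, a relative of TRIB3, with a log2 difference of 0.57 (adjusted p = 0.0982, edgeR).

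In the siRNA comparison, where 17.8% of all genes were higher and 18.2% lower, the amino acid targets went both ways, with 7 of 22 higher and 4 lower. The cystine transporter gene SLC7A11 (2.80) and its partner SLC3A2 (1.09) were higher and MTHFD2 (-0.72) was lower in siCTU2. Of 15 bZIP partners, 8 were higher and 1 lower, with a median of 0.40 against 0.00478 over all genes, and JUN (1.61), CEBPD (1.35), FOSL2 (1.06) and JUND (1.05) had the smallest p. Of the CHOP targets, PMAIP1 (1.17) and ERO1A (0.34) were higher and none of 7 lower. Of the 15 chaperone genes 3 were higher and 3 lower, CALR (-2.14) among the latter, and of the 10 eIF2 genes 2 were higher and 3 lower, so the chaperone shares lay near those of all genes. The paralog list had 2 higher and 1 lower of 4.

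Decay was read from the T arm, where triptolide blocks new transcription. Library totals cannot scale a transcription block, so counts were scaled to stable genes chosen after the study's rule, 197 in the siRNA experiment and 81 in the medium experiment, with 0 members among them. On this scale the median gene fell by 0.55 in siCTU2, 0.47 in siGL2, 0.71 in mQ and 0.69 in pQ over 3 h, in log2 units. With TMM scaling, which sets the bulk of genes to no change, these medians were 0.00469, 0.0178, 0.0185 and -0.00823. A fall is therefore read below against the median gene of the same condition.

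DDIT3 mRNA was lost fast in all 4 conditions. After 3 h it stood at 15.7, 16.0 and 20.3% of its 0 h level in the replicates of siCTU2, at 9.91, 10.6 and 10.1% in siGL2, at 2.62, 2.70 and 14.2% in mQ and at 8.57, 8.99 and 13.7% in pQ. All 12 libraries were far below the median gene, which stood at 62.0 to 72.6% of its 0 h level over the conditions. The mQ replicates disagreed, since replicate 3 still had 63.9 CPM at 3 h where the others had 6.68 and 9.29 CPM. The log2 fall over 3 h was -2.53 (SE 0.33) in siCTU2, -3.29 (SE 0.29) in siGL2, -3.71 (SE 1.06) in mQ and -3.26 (SE 0.36) in pQ. All 4 passed the edgeR test, with adjusted p from 8.13e-05 to 0.0168.

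ATF3 mRNA fell in a like manner. At 3 h it stood at 24.0, 29.5 and 14.4% in siCTU2, 17.2, 19.2 and 10.7% in siGL2, 3.85, 10.8 and 12.05% in mQ, and 3.59, 19.3 and 10.1% in pQ. The pQ replicates rested on 3 to 11 counts at 3 h. The log2 falls were -2.13 (SE 0.31), -2.64 (SE 0.47), -3.39 (SE 0.74) and -3.27 (SE 0.62) in the same order, and all passed the test (adjusted p = 0.00124 to 0.00764, edgeR). In siCTU2 the call was lost without replicate 1 (-2.17, adjusted p = 0.0791, edgeR).

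CHAC1 could be followed best in mQ, where it started from 1074 to 1627 counts. After 3 h it had 6, 18 and 24 counts, or 0.355, 1.18 and 0.881% of its 0 h level. The mean of 0.805 ± 0.417% (SD, n = 3) was the lowest 3 h mean of any member in any condition. Only 0.260% of genes kept a smaller share there, and in the same libraries 1.71% kept less than DDIT3 and 2.44% less than ATF3. The log2 fall of CHAC1 was -6.91 (SE 1.12, adjusted p = 0.00551, edgeR) in mQ. In the other conditions CHAC1 had 0 to 8 counts per library at 3 h from 16 to 37 at 0 h. Its log2 falls of -3.63 in siCTU2, -4.37 in siGL2 and -2.999 in pQ passed the test, but rest on those few counts. CHAC1 passed the count filter there only through its 0 h libraries, which favours the call of a fall, so these calls are a description. Under TMM scaling the pQ value was -2.34 and did not pass (adjusted p = 0.0604, edgeR). The falls did not pass without replicate 1 in any of the 3 conditions (adjusted p = 0.0590 to 0.163), nor without replicate 2 in siCTU2 or siGL2 (adjusted p = 0.0745 and 0.0659, edgeR).

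TRIB3 fell more slowly at first. It stood at 41.0, 59.1 and 56.5% in siCTU2, 45.7, 47.0 and 43.6% in siGL2, 51.3, 64.0 and 39.8% in mQ and 52.4, 52.3 and 48.1% in pQ after 3 h, with all 4 conditions overlapping apart from siGL2 and pQ. The log2 falls at 3 h were -0.94 (SE 0.40, adjusted p = 0.0969), -1.13 (SE 0.17, adjusted p = 0.00129), -1.01 (SE 0.21, adjusted p = 0.00682) and -0.98 (SE 0.20, adjusted p = 0.00328, edgeR), so siCTU2 did not pass. The median gene fell by 0.71 in mQ and 0.69 in pQ, and under TMM scaling TRIB3 was at -0.27 in mQ and -0.29 in pQ and passed in neither (adjusted p = 0.328 and 0.392, edgeR). Without replicate 3, siCTU2 passed (-0.997, adjusted p = 0.00154), whereas siGL2 did not without replicate 1 (adjusted p = 0.0573), nor pQ without replicate 1 or 2 (adjusted p = 0.0511 and 0.0568, edgeR).

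By 5 h TRIB3 was at a mean of 16.8 ± 10.4% in siCTU2, 20.1 ± 0.543% in siGL2, 21.0 ± 3.84% in mQ and 23.9 ± 6.06% in pQ (SD, n = 3). The 5 h fall in siCTU2 was -2.51 and passed the test (adjusted p = 0.000765, edgeR).

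NUPR1 and JDP2 kept the highest mean shares of the members in mQ, the condition with counts enough to follow them. NUPR1 stood at 66.2, 66.5 and 55.1% of 0 h after 3 h, close to the median gene at 62.0%, and 51.2% of genes kept a smaller share. Its log2 change of -0.72 (SE 0.32, adjusted p = 0.078, edgeR) did not pass the test. JDP2 stood at 68.7, 50.6 and 59.7%, and its fall of -0.78 (SE 0.26, adjusted p = 0.0289, edgeR) passed, beside a fall of 0.71 in the median gene. Under TMM scaling the NUPR1 value changed sign to 0.03 in mQ and to 0.55 in pQ, and JDP2 was at -0.04 in mQ.

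In the other conditions, NUPR1 and JDP2 had at most 29 counts per T arm library at 0 and 3 h and did not pass the test over 3 h. Their log2 changes ran from -0.15 to -0.80 for NUPR1 and were -1.101 in siGL2 and -1.77 in pQ for JDP2. JDP2 in siCTU2, with 2 counts at 0 h in all, was not tested.

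Of the members tested, 3 of 5 fell in siCTU2, 4 of 6 in siGL2, 5 of 6 in mQ and 4 of 6 in pQ, and none rose. CHAC1 is among those that fell in each, and outside mQ it passed the count filter only through its 0 h libraries. Over all genes, 26.6% fell in siCTU2, 27.9% in siGL2, 56.7% in mQ and 54.1% in pQ, while 0.995%, 0.94%, 0.788% and 0.926% rose in the same order. In mQ, without replicate 1 or without replicate 2, 0 members passed, and neither did any of the 12780 and 12716 genes tested in these edgeR fits, of which 5845 and 5641 had an unadjusted p below 0.05. Without replicate 3, all 6 members fell, as did 7088 of 12505 genes. Under TMM scaling only CHAC1 passed in mQ, with a log2 fall of -6.18, while DDIT3 was at -2.95, ATF3 at -2.64 and TRIB3 at -0.27. Without mQ T 5 h replicate 3, all 6 members fell in mQ, with DDIT3 at -3.70 and CHAC1 at -6.92.

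**Figure D4:**
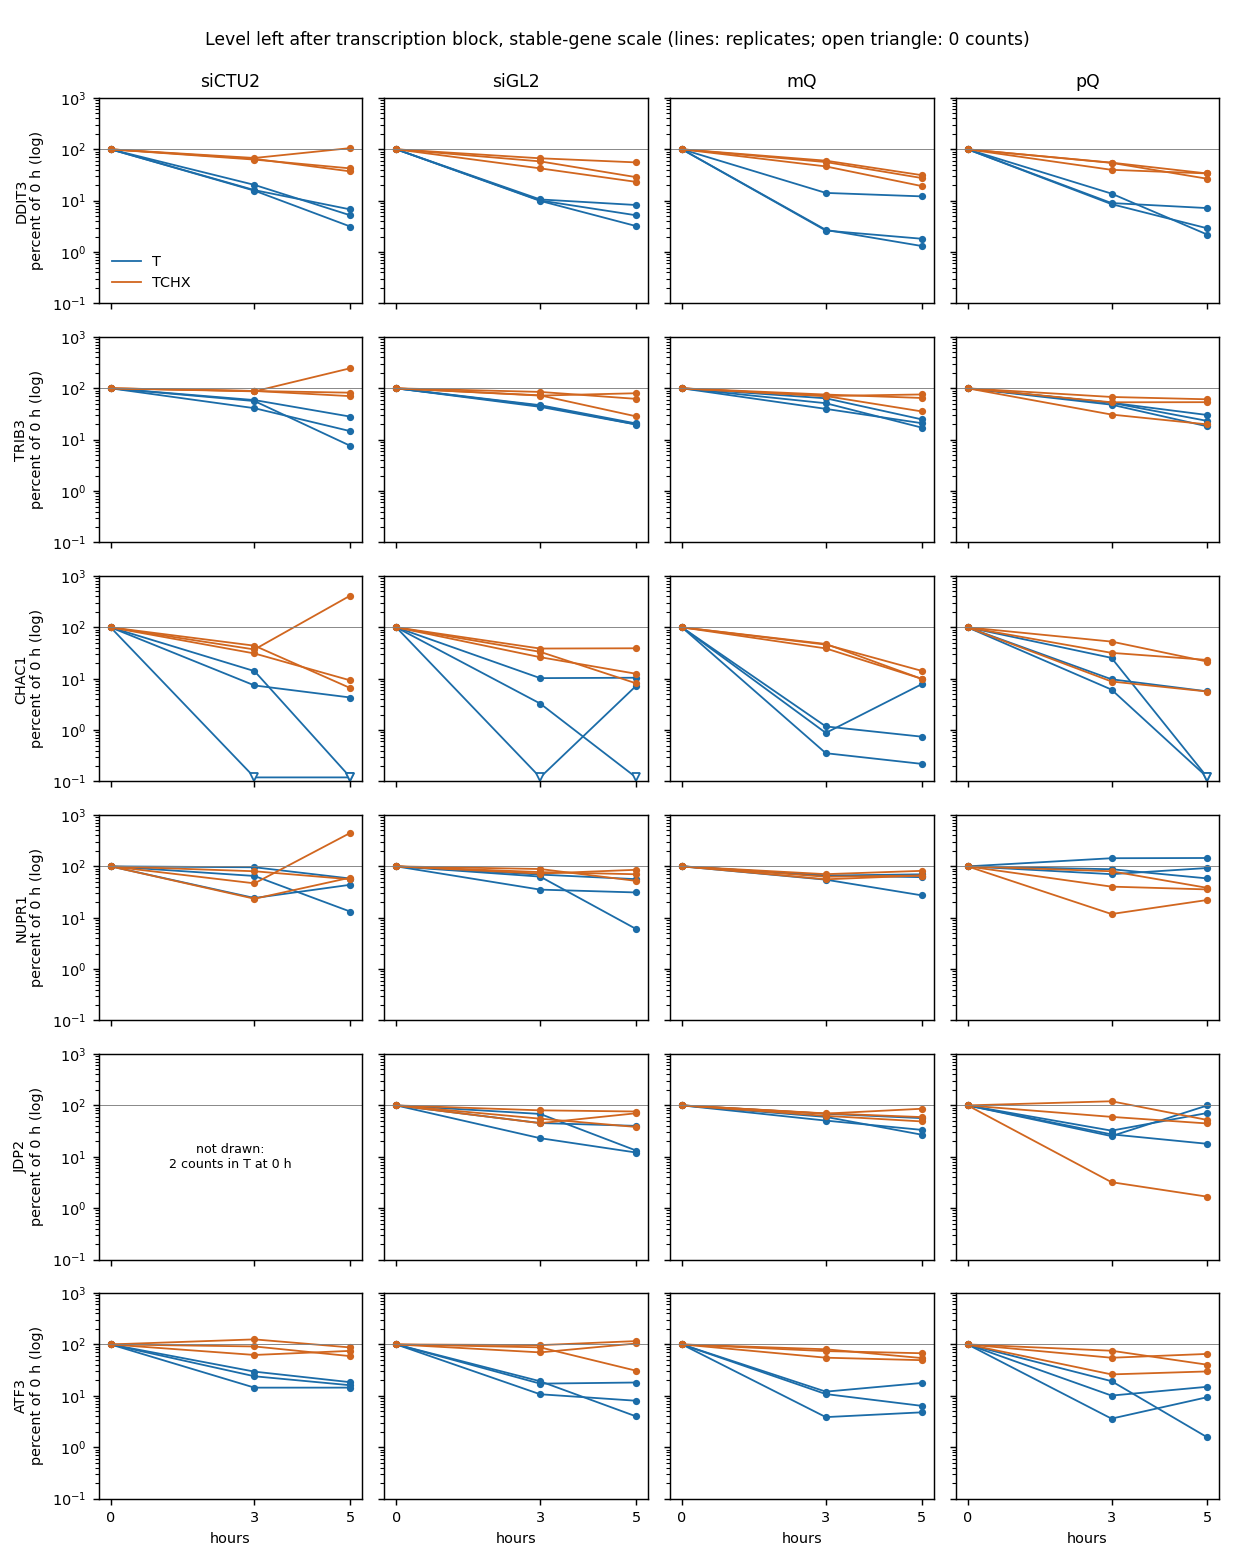
Percent of the 0 h level kept after 0, 3 and 5 h in the T and TCHX arms, for each member and condition, on the stable gene scale (log axis), with a line for each replicate and open triangles for 0 counts. DDIT3, ATF3 and CHAC1 drop steeply in the T arm, while NUPR1 in mQ stays between 55.1 and 66.5% at 3 h.

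With cycloheximide, which stops translation and with it any decay that needs translation, more mRNA of the fast members was kept. DDIT3 in mQ stood at 56.5, 46.4 and 60.1% after 3 h with the drug, against 2.62, 2.70 and 14.2% without it, and no replicate overlapped. The same held in the other conditions, with means of 65.4 ± 2.40% in siCTU2, 55.9 ± 12.3% in siGL2 and 49.8 ± 8.59% in pQ (SD, n = 3). The cycloheximide effect below is the log2 difference between the TCHX and the T arm, averaged over 3 h and 5 h. For DDIT3 it was 2.57 (SE 0.26) in siCTU2, 2.64 (SE 0.22) in siGL2, 2.44 (SE 0.56) in mQ and 2.74 (SE 0.25) in pQ, each past the edgeR test (adjusted p = 4.01e-07 to 0.0189). The siCTU2 value includes TCHX 5 h replicate 3, which stood apart, with DDIT3 at 105.6% of 0 h against 37.2 and 42.5% in replicates 1 and 2. Over the alternatives, 1 of them without that library, this value ran from 1.79 to 3.36.

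ATF3 was kept to a like degree. At 3 h with cycloheximide it was at 39.2, 37.8 and 58.4 CPM in mQ, against 1.92, 5.48 and 10.2 CPM without. The CPM values with and without the drug did not overlap. On the stable gene scale, ATF3 with the drug stood at 74.1, 55.2 and 80.5% of its 0 h level in mQ, beside 66.1% for the median gene. Its effect was 2.03 (SE 0.20) in siCTU2, 2.53 (SE 0.34) in siGL2, 2.70 (SE 0.38) in mQ and 2.40 (SE 0.38) in pQ (adjusted p = 1.29e-06 to 0.00178, edgeR).

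CHAC1 in mQ stood at 88.0, 77.1 and 127 CPM at 3 h with cycloheximide, against 0.679, 2.74 and 2.55 CPM without. At 5 h CHAC1 was at 17.5, 20.6 and 40.6 CPM with the drug, or 9.92, 9.97 and 14.2% of 0 h, where DDIT3 kept 26.1 ± 6.22% and TRIB3 58.8 ± 20.9% (SD, n = 3). Without the drug CHAC1 was then at 0.393, 1.69 and 18.7 CPM, or 0.220, 0.745 and 7.83%, the last from the library that stood apart. The shares did not overlap between the arms at 5 h, and every CHAC1 library with the drug was lower than at 3 h. The effect on CHAC1 was 3.64 (SE 0.55, adjusted p = 0.00208, edgeR) in mQ and 2.95 (SE 0.62, adjusted p = 0.00268, edgeR) in pQ. Without mQ T 5 h replicate 3, it was 5.10 in mQ and DDIT3 had 3.56 in place of 2.44. In pQ, where replicate 3 at 0 h stood apart, it was 1.28 and did not pass once the 0 h difference between the arms was subtracted.

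In siCTU2 the effect on CHAC1 was 4.63 (SE 1.11, adjusted p = 0.00523, edgeR), but it rested on TCHX 5 h replicate 3, with 210 counts against 2 and 2 in the other replicates. Without this library the effect was 2.11 and did not pass (adjusted p = 0.0801, edgeR). In siGL2, CHAC1 had an effect of 1.43 (SE 0.60, adjusted p = 0.159, edgeR).

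TRIB3 was kept less strongly than DDIT3 and ATF3, with effects of 1.49 (SE 0.28) in siCTU2, 1.099 (SE 0.20) in siGL2, 1.15 (SE 0.15) in mQ and 0.70 (SE 0.17) in pQ. All 4 passed the test (adjusted p = 0.000719 to 0.00936, edgeR), though not without replicate 1 in siCTU2 (1.44, adjusted p = 0.0555) or without replicate 1 or 2 in siGL2 and pQ (0.66 to 1.08, adjusted p = 0.0896 to 0.167, edgeR). At 3 h alone the effects were 0.47, 0.70, 0.68 and 0.26, and none of these passed.

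At 3 h with cycloheximide TRIB3 stood at 88.7, 88.9 and 87.3% in siCTU2, 72.3, 85.2 and 73.0% in siGL2, 71.0, 75.6 and 70.7% in mQ and 67.9, 53.5 and 30.9% in pQ. The low pQ value belongs to replicate 3, whose 0 h library stood apart with 67.7 CPM.

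NUPR1 and JDP2 did not pass in any condition. NUPR1 in mQ was at 73.1, 49.6 and 122 CPM at 3 h with cycloheximide and at 77.7, 62.3 and 121 CPM without, which overlapped. Its effect there was 0.23 (SE 0.26, 95% interval -0.27 to 0.73, adjusted p = 0.684, edgeR). JDP2 in mQ had an effect of 0.71 (SE 0.22, interval 0.29 to 1.14, adjusted p = 0.0659, edgeR), which passed without mQ T 5 h replicate 3 (0.63, adjusted p = 0.0451, edgeR). With this, 4 of 6 members were higher with cycloheximide in siCTU2, 3 in siGL2, 4 in mQ and 4 in pQ, and none lower. Over all genes, 21.0% were higher in siCTU2, 12.1% in siGL2, 5.12% in mQ and 12.3% in pQ, and 0.169%, 0.555%, 0.119% and 0.457% were lower in the same order. In mQ, 0 members passed in edgeR without replicate 1, without replicate 2, or with the 0 h difference between the arms subtracted, and over all genes only 2, 1 and 1 passed there, with 1198, 1113 and 1226 at an unadjusted p below 0.05. Without replicate 3 DDIT3, TRIB3, CHAC1 and ATF3 passed, and 3210 of 13418 genes were higher.

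**Figure D5:**
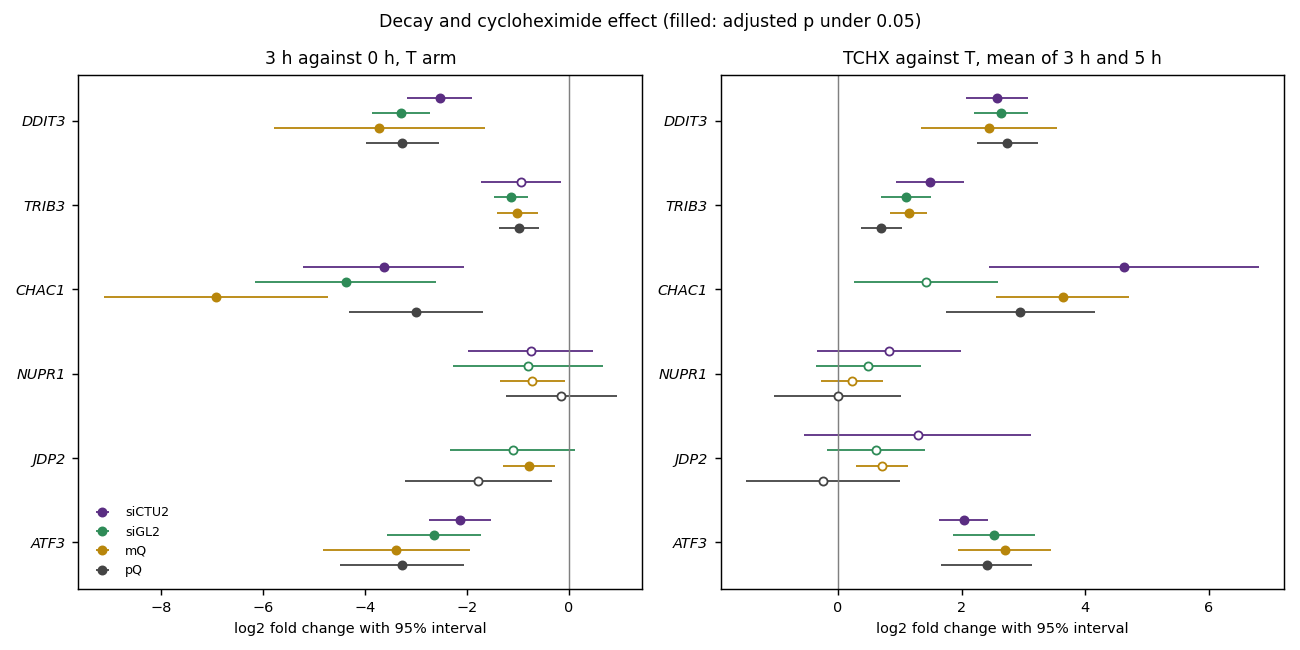
Log2 change over 3 h in the T arm and log2 cycloheximide effect for each member in the 4 conditions, with bars for the 95% intervals. DDIT3 and ATF3 have cycloheximide effects between 2.03 and 2.74 in every condition, and the NUPR1 bars of that effect reach 0 in each.

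The differences between conditions were tested directly. For the decay over 3 h, no member differed between siCTU2 and siGL2, and no member differed between mQ and pQ, after adjustment over all genes. DDIT3 fell less in siCTU2 by 0.76 (95% interval -0.08 to 1.60), and its difference between mQ and pQ was -0.45 (interval -2.73 to 1.82). The TRIB3 intervals were -0.70 to 1.09 for the siRNA pair and -0.60 to 0.53 for the medium pair. CHAC1 fell more in mQ than in pQ by -3.89 on the log2 scale (interval -7.11 to -0.66), with an unadjusted p of 0.03 in edgeR and an adjusted p that missed the threshold. In pQ it had 19 to 37 counts at 0 h and 3 to 6 at 3 h, against 1074 to 1627 at 0 h in mQ. The low start bounds the fall that can be measured in pQ, so the sizes of the 2 falls are not comparable.

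Likewise no member passed for the cycloheximide effect. The difference between siCTU2 and siGL2 was -0.07 (interval -0.73 to 0.59) for DDIT3 and -0.50 (interval -1.24 to 0.24) for ATF3. For CHAC1 it was 3.19 (interval 0.40 to 5.99, adjusted p = 0.456, edgeR), with the library that stood apart on the siCTU2 side. Between mQ and pQ it was -0.29 (interval -1.61 to 1.03) for DDIT3, 0.45 (interval -0.01 to 0.90) for TRIB3 and 0.29 (interval -0.94 to 1.52) for ATF3. These intervals still allow sizeable differences.

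Few genes of any kind passed these tests. For decay, 0.0525% of all genes were lower and 0.0% higher in siCTU2 than in siGL2, and 0.0% passed in either direction between mQ and pQ. For the cycloheximide effect, 0.351% were higher and 0.0281% lower in siCTU2, and 0.0% passed between mQ and pQ. At an unadjusted p below 0.05 the edgeR counts were 400 and 238 genes for decay and 1316 and 525 for the cycloheximide effect, in the siRNA and medium pairs. Without replicate 3, DDIT3 (-1.74) and CHAC1 (-4.50) differed in decay between mQ and pQ, with adjusted p of 0.0307 and 0.031, and DDIT3 (1.65) and TRIB3 (0.59) in the cycloheximide effect, with adjusted p of 0.00134 and 0.0301 (edgeR). In these fits 100 genes were higher and 38 lower of 13250 for decay, and 297 higher and 4 lower of 14132 for the cycloheximide effect. The CHAC1 difference in decay is again bounded by its few counts in pQ. Replicate 3 holds mQ T 5 h and pQ TCHX 0 h, the libraries that stood apart in this experiment, as well as the mQ T 3 h library with 63.9 CPM of DDIT3.

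The counts for the gene lists are to be read against the shares of all genes given above, 26.6, 27.9, 56.7 and 54.1% that fell and 21.0, 12.1, 5.12 and 12.3% that were higher with cycloheximide, in siCTU2, siGL2, mQ and pQ. Of the bZIP partners, 10 of 14 fell over 3 h in siCTU2, 9 of 14 in siGL2, 14 of 15 in mQ and 12 of 14 in pQ, with medians of -1.63, -1.65, -2.46 and -2.25. With cycloheximide 10, 9, 7 and 12 of 15 were higher in the same order. JUN, an AP-1 subunit that pairs with ATF3 and JDP2, fell by 5.10 in siCTU2 and rose by 2.53 with cycloheximide there. CEBPB, a dimer partner of CHOP, fell by 3.05 in mQ and rose by 2.43 with the drug.

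TRIB1, a paralog of TRIB3, had log2 changes of -4.96 in siCTU2, -4.97 in siGL2, -6.35 in mQ and -5.41 in pQ, each past the test. TRIB3 itself lay between -1.13 and -0.94. Of the paralogs tested, 4 of 4, 3 of 4, 5 of 5 and 4 of 4 fell, and 4 of 5, 2 of 4, 0 of 5 and 3 of 4 were higher with cycloheximide. TRIB2 was the only gene of these lists that differed between siCTU2 and siGL2 in the cycloheximide effect (0.60, adjusted p = 0.0138, edgeR).

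Of the 7 CHOP targets tested, 5, 5, 5 and 7 fell, and 4, 2, 3 and 4 were higher with cycloheximide. Of the 10 eIF2 and kinase genes, 7, 5, 10 and 8 fell, and 5, 3, 3 and 2 were higher. ATF4 itself had cycloheximide effects of 1.07, 0.97, 0.87 and 0.86, below those of DDIT3 and ATF3 in each condition.

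The amino acid targets mostly followed the median gene: 3 of 22, 5 of 22, 15 of 23 and 13 of 22 fell, with medians of -0.50, -0.40, -0.61 and -0.69. DDIT4, the gene with the 0 h profile closest to DDIT3, departed from the median gene, with falls from -3.61 to -5.61 and cycloheximide effects from 2.17 to 2.65. Of this list, 4, 1, 3 and 2 were higher with cycloheximide, and SLC7A11 was lower in siGL2 (-0.60). Of the 15 chaperone genes, 4, 3, 10 and 8 fell and 1, 1, 2 and 3 were higher, XBP1 among them in every condition, and the shares that fell lie near those of all genes.

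The members also differ in sequence features that may be read beside these values. DDIT3 has the highest share of the codons AAA, GAA and CAA, those read by the tRNAs that the CTU2 enzyme modifies, with 13.02% of its 169 codons. This is above 91.8% of 19458 coding sequences, whose median is 5.66%. ATF3 has 9.39%, JDP2 5.52%, NUPR1 4.88%, CHAC1 3.604% and TRIB3 1.68%, the last above only 10.7% of coding sequences. The siCTU2 against siGL2 differences at 0 h of these genes were given above, and no relation over 6 genes was tested.

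The pentamer ATTTA, the core of AU-rich elements that shorten mRNA life, occurs 2 times in the 216 bases of the DDIT3 3′ UTR, 3 times in 1220 bases of ATF3 and 1 time in 738 bases of CHAC1. It occurs 0 times in 869 bases of TRIB3, 3 times in 4632 bases of JDP2 and 5 times in 4975 bases of NUPR1. Per 1000 bases this is 9.26 in DDIT3, 2.46 in ATF3, 1.36 in CHAC1, 1.01 in NUPR1 and 0.648 in JDP2, beside a median of 1.53 over 19093 3′ UTRs, of which 68.0% hold at least 1. DDIT3 and ATF3 are above this median, and CHAC1, NUPR1, JDP2 and TRIB3 are below it. The longer pattern TATTTAT occurs 1 time each in DDIT3, CHAC1 and ATF3 and 0 times in TRIB3, NUPR1 and JDP2, beside 31.8% of 3′ UTRs that hold it. These densities rest on few matches in 1 transcript per gene, and a relation to decay was not tested.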

How the data were processed

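The deposited values were raw read counts per gene. Per the submitters' processing notes, the authors trimmed reads with fastp 0.20.1, mapped them to GRCh38.p13 with HISAT2 2.2.1 and counted them over the NCBI annotation with HTSeq 0.13.5. Strand use and read de-duplication were not given in the sources used here, which leaves PCR copies possible among the counts, and the exact intervals on count ratios cover counting error only. ERCC RNA had been added, but the table held 0 spike-in names, so it was not used here. All columns were matched to a sample by its description label, and 0 were left over. No libraries held identical values.

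Counts were fitted over all genes in R 4.3.3 with edgeR 4.0.16 (filterByExpr, quasi-likelihood test), with Benjamini-Hochberg adjustment over all genes tested and a threshold of 0.05. TMM scaled the 0 h fits of 6 libraries. Time courses were scaled to stable genes (CPM above 0.2 at 0 h, CPM at 3 or 5 h at least 1.1 times that at 0 h, and a later CPM below 10 times that at 0 h, for each arm and replicate). Intervals on log2 differences are normal 95% intervals from the standard errors. Alternatives were DESeq2 1.42.0, other scalings, filters, times and arms, a replicate block, the study's TDD index with a linear model, and fits without each replicate or without the 3 libraries that stood apart. The last was chosen after seeing the data. Scripts were tested on simulated counts.

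The 6 members and all gene lists were chosen with earlier results of these data known. All 6 members are named in every comparison, along with up to 4 genes per list with the smallest p (largest fold where there was no test), and the 2 genes with the most similar 0 h profile. Replicate numbers come from the titles, and the descriptions carry 1 prefix per number, the same in all groups, whose meaning is not stated. Same-numbered samples deviated together, with every pair's correlation above 0.1, in decay for siCTU2 (0.141 to 0.243) and pQ (0.143 to 0.379). The same held in the cycloheximide effect for pQ (0.125 to 0.851). In the other comparisons at least 1 pair was below 0.1, though some pairs were well above it, as in the cycloheximide effect for siGL2 (0.069 to 0.838).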

Additional observations from a re-analysis of the deposited data

How the results depend on the processing

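Among the values of single members under the alternatives, 800 kept their direction and, where tested, their side of the threshold. A further 72 no longer passed, 21 newly passed and 60 changed sign. The untested T arm contrast of mQ and pQ had no threshold. Its values were judged by the SD of the log2 ratios of same-numbered libraries. Those that moved by less are among the 800, and 7 moved by more than that. Of the counts of members past the threshold, 133 stayed within 1.5 times the main count and 19 did not. The cause of these changes was not tested.

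At 0 h, 2 members passed between siCTU2 and siGL2 in the TCHX arm, against 4 in the T arm, and CHAC1 changed sign to 0.011 there. Leaving out replicates moved NUPR1 between -0.20 and 0.36. With TMM scaling, 1 member fell in mQ (5 with stable genes) and 2 in pQ (4), and NUPR1 changed sign to 0.032 and 0.55. Leaving out replicates, the number that fell ran from 1 to 4 in siCTU2, 2 to 4 in siGL2, 0 to 6 in mQ and 2 to 4 in pQ, where NUPR1 ran from -0.39 to 0.19.

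At 3 h alone, 2 members passed for the cycloheximide effect in siCTU2, 2 in mQ and 2 in pQ, and at 5 h alone 1 in mQ. With the 0 h difference subtracted, 0 passed in mQ and 2 in pQ. Leaving out replicates gave 0 to 4 in mQ. Sign changes were those of NUPR1 in siCTU2 (-0.63 at 3 h alone, -0.23 without the libraries that stood apart), JDP2 in siCTU2 with the 0 h difference subtracted (-1.81), NUPR1 in mQ at 3 h alone (-0.051), JDP2 in pQ at 3 h alone (0.63), and NUPR1 in pQ at 5 h alone (0.042) and by DESeq2 (0.00427). Leaving out replicates, NUPR1 ran from -0.66 to 1.63 in siCTU2, -0.046 to 0.38 in mQ and -0.31 to 0.13 in pQ, and JDP2 from -0.98 to 0.18 in pQ.

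The differences between conditions were the least stable. For decay between siCTU2 and siGL2, 5 h against 0 h gave -0.070 for DDIT3, -0.19 for TRIB3 and -2.49 for CHAC1, and leaving out replicates moved NUPR1 from -0.70 to 0.56. For decay between mQ and pQ, 5 h against 0 h gave 0.52 for DDIT3, 0.57 for CHAC1, -0.71 for JDP2 and 0.38 for ATF3, and -0.54 for JDP2 without the libraries that stood apart. TMM scaling gave 0.000237 for TRIB3. In this comparison 1 member passed with no filter on low counts and 0 to 2 without a replicate, where ATF3 ran from -0.53 to 0.41 and TRIB3 from -0.16 to 0.13.

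For the cycloheximide effect between siCTU2 and siGL2, 3 h alone gave -0.23 for TRIB3, -0.17 for CHAC1 and -0.97 for NUPR1, and 5 h alone gave 0.61 for DDIT3. Subtracting the 0 h difference gave 0.17 for DDIT3 and -2.69 for JDP2. For DDIT3, genes stable at both times gave 0.070 and the TDD index 0.10. Without the library that stood apart, NUPR1 was at -0.72 and JDP2 at -0.48. Leaving out replicates, DDIT3 ran from -0.45 to 0.32, TRIB3 from -0.17 to 0.92, CHAC1 from -0.17 to 4.59, NUPR1 from -2.01 to 1.42 and JDP2 from -0.032 to 1.42. Between mQ and pQ, 3 h alone gave 0.43 for DDIT3 and -0.24 for JDP2, and 5 h alone -2.09 for CHAC1 and -0.00306 for ATF3. For DDIT3, genes stable at both times gave 0.20 and leaving out the libraries that stood apart 0.82. Without a replicate, 0 to 2 members passed, with DDIT3 from -1.12 to 1.65, CHAC1 from -1.03 to 2.44 and ATF3 from -0.0051 to 0.89.

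With the replicate block, the number of members that passed stayed within 1.5 times in every comparison. NUPR1 newly fell in mQ under the block (-0.70, adjusted p = 0.0414, edgeR), where 6 members passed, and sign changes under the block were those of NUPR1 in the siRNA differences (-0.048 for decay, -0.035 for the cycloheximide effect) and of DDIT3 in the cycloheximide difference between mQ and pQ (0.039). The block changed no other call of a member.

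Depth limits CHAC1, NUPR1 and JDP2 outside mQ, where T arm libraries held few counts at 0 h, and the groups of 3 limit every test.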
